A study of Rattus norvegicus with 16 samples.

Results

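The comparison described here is the earliest sampled one in the CA3 field of cultured rat hippocampus: expression at 30 min (label T30m) set against T0. Its members were chosen by the region and time in the sample titles and are 4 of the 16 arrays of the series, 2 CA3 arrays at T0 and 2 CA3 arrays at 30 min. All 16 came from organotypic slice cultures of Rattus norvegicus, that is, slices of hippocampal tissue kept alive in a dish with their neurons and glia, and the other 12 hold CA3 at 3 h and 12 h and CA1 at all 4 times, 2 arrays each. The series studies oxidative stress; the sources used here do not give the agent, its dose, how T0 relates to it, or the strain and age of the rats. The replicates are called biological without a word on whether they came from separate animals, so p-values measure only the spread between these samples.

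CA3 is the hippocampal field whose pyramidal neurons receive the mossy fibres of the dentate gyrus and project to CA1; they are known as less vulnerable to many insults than CA1 neurons. Cells that are stimulated or stressed switch on immediate early genes within minutes, because the transcription factors that do so are already present and only need to be modified. The first products are transcription factors such as Fos and Junb, which form the AP-1 complex, and feedback proteins such as the phosphatase Dusp1 and the mRNA-destabilising protein Zfp36, which shorten the signal. Oxidative stress is also known to engage NRF2, which drives antioxidant genes, and the integrated stress response, which runs through Atf4. Slice cultures hold dividing glia and progenitors as well, and genes of DNA replication and mitosis report on that division.

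The starts of 5 genes on which the account turns are shown first, because their letters hold sites that textbooks tie to these programmes. Each run covers 300 bases, most of them before the annotated start and the last ones after it, read 5′ to 3′ on the gene's own strand, from RefSeq (assembly GRCr8). Zfp36 lies at chr1:92799059-92799358 (minus strand), Dusp1 at chr10:17184603-17184902 (plus), Junb at chr19:40080876-40081175 (plus), Mcm3 at chr9:30733697-30733996 (minus) and Mki67 at chr1:199952544-199952843 (minus). Capitals mark matches, on either strand, to 5 motifs: the CArG box bound by serum response factor, TGACGTCA (the cAMP response element) and its core TGACG, TTTCCCGC (an E2F site) and TTTGAA (the CHR element of cell cycle genes).
Zfp36: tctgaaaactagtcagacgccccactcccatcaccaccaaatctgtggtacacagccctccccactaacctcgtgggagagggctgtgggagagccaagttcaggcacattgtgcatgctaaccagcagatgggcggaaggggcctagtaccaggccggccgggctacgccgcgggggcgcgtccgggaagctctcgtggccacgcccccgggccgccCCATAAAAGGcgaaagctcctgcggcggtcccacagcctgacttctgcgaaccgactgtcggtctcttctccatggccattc
Dusp1: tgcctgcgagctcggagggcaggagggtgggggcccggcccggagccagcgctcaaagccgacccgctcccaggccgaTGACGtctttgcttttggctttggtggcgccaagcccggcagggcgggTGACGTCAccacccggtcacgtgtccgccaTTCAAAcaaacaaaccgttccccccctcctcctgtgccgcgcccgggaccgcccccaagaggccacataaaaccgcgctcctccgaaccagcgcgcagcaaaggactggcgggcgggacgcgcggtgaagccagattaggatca
Junb: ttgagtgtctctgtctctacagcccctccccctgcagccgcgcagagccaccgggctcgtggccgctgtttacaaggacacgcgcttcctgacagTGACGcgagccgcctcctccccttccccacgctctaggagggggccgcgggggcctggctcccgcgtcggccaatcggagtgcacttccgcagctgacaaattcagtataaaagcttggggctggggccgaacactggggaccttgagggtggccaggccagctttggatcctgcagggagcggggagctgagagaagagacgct
Mcm3: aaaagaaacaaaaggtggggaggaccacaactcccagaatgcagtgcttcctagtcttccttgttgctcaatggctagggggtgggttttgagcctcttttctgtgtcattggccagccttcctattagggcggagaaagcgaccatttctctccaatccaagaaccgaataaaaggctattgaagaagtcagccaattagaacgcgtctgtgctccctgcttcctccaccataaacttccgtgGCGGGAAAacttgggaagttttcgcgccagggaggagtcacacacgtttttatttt
Mki67: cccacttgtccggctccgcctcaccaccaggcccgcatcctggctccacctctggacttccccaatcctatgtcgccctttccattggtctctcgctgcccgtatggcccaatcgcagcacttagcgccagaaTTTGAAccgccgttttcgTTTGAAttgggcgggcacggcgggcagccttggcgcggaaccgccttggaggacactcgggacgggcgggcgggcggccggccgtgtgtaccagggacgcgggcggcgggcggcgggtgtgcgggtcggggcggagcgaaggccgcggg
In Zfp36 the capitals are a CArG box, which 1.64% of 33469 promoters of this length hold. In Dusp1 they are TGACG, then TGACGTCA (1.83% of promoters; it contains TGACG), then TTTGAA on the reverse strand. The capitals of Junb are TGACG, which 21.2% of promoters hold. Those of Mcm3 are TTTCCCGC on the reverse strand (0.974% of promoters), and those of Mki67 are TTTGAA at 2 places (18.3% of promoters). A match is a description of the letters and not evidence of binding.

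The 4 arrays did not fall into 2 clean pairs, and this touches every result below. Over the 15866 probe sets (the array's units of measurement, each a set of probes for 1 transcript), the 2 arrays at T0 correlated at 0.954 and the 2 at 30 min at 0.921, while T0 replicate 1 correlated with 30 min replicate 2 at 0.963. The mean log2 signal of 24 bacterial control probe sets was 6.62 and 6.57 at T0, 6.68 in 30 min replicate 1 and 4.26 in 30 min replicate 2. The BioB hybridisation controls instead set 30 min replicate 1 apart, at 6.43 and 8.03 at T0 and 10.59 and 6.26 at 30 min. Outside these 4 arrays, the bacterial control signal was also low on replicate 2 of CA1 at 30 min (4.51). The same held for replicate 2 at 12 h in CA1 (4.49) and CA3 (4.45). It was not low on replicate 2 at 3 h (6.42 in CA1, 6.24 in CA3) or of CA1 at T0 (6.29). The 3' minus 5' signal of GAPDH, a measure of RNA quality, was 1.93 and 2.62 at T0 and 1.47 and 2.05 at 30 min. The part of these control values in the results below was not tested, except where a value with the bacterial control signal as a covariate is given. Excitatory neuron markers, as the mean log2 value of 11 measured genes, read 7.57 and 5.87 at T0 and 5.86 and 7.91 at 30 min in replicates 1 and 2. These markers were thus high on T0 replicate 1 and 30 min replicate 2 and low on the other two, whereas those of inhibitory neurons averaged 6.72 and 6.81 at T0 and 6.0 and 7.25 at 30 min. Markers of microglia and macrophages (17 measured genes) averaged 8.65, 8.48 and 8.55 on the first 3 of these arrays and 7.05 on 30 min replicate 2. The markers of CA3 pyramidal neurons, 7 measured of 13 listed, averaged 6.92 and 5.83 at T0 and 5.96 and 7.53 at 30 min, against 5.80, 5.39, 6.32 and 6.99 on the matching CA1 arrays, so they did not separate the fields. Grik4, a kainate receptor subunit enriched in CA3, read 6.29, 5.27, 5.98 and 6.61 in CA3 and 5.33 to 5.56 in CA1. In bulk tissue, fewer cells of a type and less RNA per cell cannot be told apart.

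No probe set passed the threshold between T0 and 30 min in CA3 (limma, Benjamini-Hochberg adjusted p under 0.05; 0 of 15866, 0.0%), and the smallest adjusted p was 0.857. At an unadjusted p under 0.05 there were 483 probe sets (3.04%), 194 higher at 30 min (1.22%) and 289 lower (1.82%), where chance alone would give 793. The differences below are therefore sizes and array values, not calls. These counts moved with single arrays: without T0 replicate 1 they were 245 and 519, and 5 probe sets passed the adjusted threshold; without T0 replicate 2 they were 106 and 191, without 30 min replicate 1 they were 336 and 448, and without 30 min replicate 2 they were 612 and 387. With 2 arrays against 2, an exact permutation test of a single gene cannot give a two-sided p below 0.333.

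Among 10411 named genes, 1325 (12.7%) had both 30 min arrays above both T0 arrays and 1402 (13.5%) had both below. With a difference of at least 2-fold as well, 49 genes were higher (0.471%) and 92 lower (0.884%), or 67 (0.422%) and 129 (0.813%) of the probe sets. The difference was above 0 for 51.2% of genes, with a median of 0.01 on the log2 scale. At an unadjusted p under 0.05, 1.27% of genes were higher and 2.16% lower. The median gap between the 2 arrays of a group was 0.27 at T0 and 0.37 at 30 min, and 1558 genes had a gap of at least 1 at 30 min against 831 at T0. The list counts that follow are to be read against these shares. The lists were chosen with earlier results of these data known, so their counts describe the data and are not independent support.

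The 15 genes higher at 30 min that led by unadjusted p, among genes without overlap of the groups, differed by 0.62 to 1.80 on the log2 scale. That rule, used for the 15 lower genes too, favours arrays that agree within a group and differ between groups. Such agreement, and intervals away from 0, are therefore no separate support. Zfp36, which binds AU-rich messages and hastens their decay, came first. Its log2 values were 5.55 and 5.25 at T0 and 6.29 and 6.90 at 30 min, a difference of 1.19 ± 0.23 (moderated standard error, n = 2 arrays in each group here and throughout), or 2.29-fold, with a 95% confidence interval of 0.68 to 1.71 on the log2 scale. Smad1, a transducer of bone morphogenetic protein signals, had values of 6.15 and 6.31 at T0 and 7.59 and 7.31 at 30 min (1.22 ± 0.28). For Smad1 the arrays of a pair lay close together and the pairs far apart. Cd9, a tetraspanin of the cell surface that is abundant in glia, had the widest difference of the 15: it read 7.91 and 7.57 at T0 and 9.24 and 9.84 at 30 min (1.80 ± 0.46, 3.49-fold). Pbx3, a homeodomain transcription factor, read 8.57 and 8.58 at T0 and 9.38 and 9.78 at 30 min (1.00 ± 0.25).

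The other 11 of these genes have unlike roles. Tyro3, a receptor tyrosine kinase, read 5.77 and 5.50 at T0 and 6.42 and 6.90 at 30 min. Lrrc8d, a subunit of the volume-regulated anion channel, read 5.29 and 5.89 at T0 and 6.55 and 6.68 at 30 min. Atp6ap1, an accessory subunit of the vacuolar proton pump, read 7.90 and 7.95 at T0 and 8.60 and 8.90 at 30 min. In each of these the later arrays lay above the earlier ones by more than the gap within either pair. Strn, a scaffold of the phosphatase PP2A, was higher by 0.69 ± 0.20, and the phosphatase Ptp4a3 by 0.62 ± 0.18. Mpzl1, a cell-surface glycoprotein, was higher by 1.08 ± 0.31, and the PDZ adaptor Gipc1 by 0.65 ± 0.20. For the RNA-processing protein Lsm7 the difference was 0.89 ± 0.26, and for the ubiquitin-conjugating enzyme Ube2q2 it was 0.90 ± 0.27. Nudt22 and Rmnd5b differed by 1.17 ± 0.32 and 0.83 ± 0.19. All 15 had an adjusted p of 1 in the limma fit.

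Of the 15 lower genes, Pimreg, Mki67 and Spc25 belong to the mitosis list and Mcm3 to the DNA replication list described further on. Pimreg, a mitotic protein, read 6.78 and 6.16 at T0 and 4.92 and 4.53 at 30 min, a difference of -1.74 ± 0.30. Mki67, which encodes the proliferation marker Ki-67, read 7.06 and 7.53 at T0 and 5.82 and 5.28 at 30 min (-1.74 ± 0.36, 3.34-fold lower). Mcm3, a subunit of the replicative helicase, read 6.59 and 6.47 at T0 and 5.57 and 5.56 at 30 min (-0.96 ± 0.21). In these 3 genes both 30 min arrays stood well below both T0 arrays, and for Mcm3 the arrays of each pair nearly coincided. Spc25, a kinetochore protein, differed by -1.29 ± 0.32, lamin B1 (Lmnb1) by -1.29 ± 0.33, and Cdca5l1 by -1.56 ± 0.33. Nes, which encodes nestin, the filament protein of neural progenitors and reactive glia, read 7.49 and 8.10 at T0 and 6.80 and 6.78 at 30 min (-1.0 ± 0.23).

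Zfp217, a zinc finger protein, had the smallest p of all named genes: it read 6.57 and 6.55 at T0 and 5.37 and 5.31 at 30 min (-1.22 ± 0.21). Cars1, the tRNA synthetase for cysteine, read 8.15 and 8.26 at T0 and 7.09 and 7.41 at 30 min (-0.95 ± 0.22). C8h15orf39 read 7.04 and 7.62 at T0 and 6.06 and 6.28 at 30 min. Among these 3, the T0 arrays of Zfp217 and of Cars1 nearly coincided. Cd93, a surface receptor found on endothelial and myeloid cells, had the largest difference of the 30 genes and the widest gap at T0: 6.07 and 7.84 at T0 against 4.77 and 4.57 at 30 min (-2.28 ± 0.55). Podxl, a sialomucin, differed by -0.78 ± 0.18, the translation repressor Eif4ebp3 by -0.78 ± 0.17, the calcium-binding protein S100a11 by -1.19 ± 0.29 and Ermard by -1.24 ± 0.32. The adjusted p was 0.857 for Zfp217, Pimreg and C8h15orf39 and 1 for the other 12 (limma). For 6 of the 30 genes (Smad1, Strn, Cars1, Podxl, Cd93 and Lmnb1) the array has 9 further probe sets, which differed by only -0.20 to 0.19. Apart from that of Smad1 (mean log2 value 5.67) and the brighter of Cars1 (6.85), these were dim, with means of 3.45 to 4.68. A dim probe set may miss a difference. The values given thus rest on 1 probe set each.

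**Figure D1:**
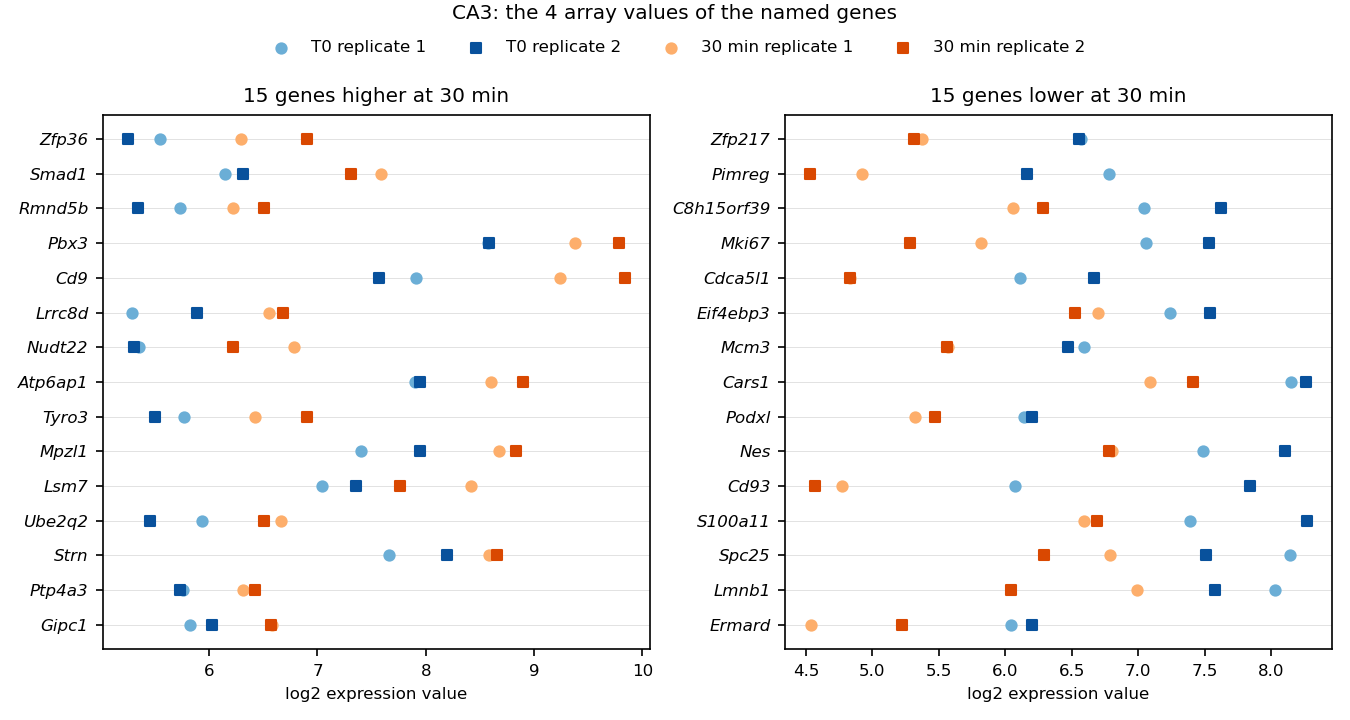
Log2 expression values (x axes) of the 15 higher and 15 lower genes on the 4 CA3 arrays; blue marks are T0, orange marks 30 min, circles replicate 1 and squares replicate 2. By the rule that chose them the 2 colours do not overlap; Mcm3 has T0 at 6.59 and 6.47 and 30 min at 5.57 and 5.56, whereas Cd93 has T0 arrays as far apart as 6.07 and 7.84.

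Of the 9 measured AP-1 genes, 7 were higher at 30 min and 2 lower, with a median difference of 0.35 against 0.01 over all genes; 5 had both 30 min arrays above T0 (12.7% of all genes did) and 1 had both below. None of the 9 passed the adjusted threshold, and 2, Fos and Junb, had an unadjusted p under 0.05 on the higher side (1.27% of all genes). Among the 5, Fosl2 and Jund were dim and differed by only 0.16 and 0.26. Fosl2 read 4.22 and 4.29 at T0 and 4.48 and 4.35 at 30 min, and Jund 3.95 and 4.28 against 4.42 and 4.33. Fos read 7.83 and 9.84 at T0 and 10.65 and 10.51 at 30 min (1.74 ± 0.59, 3.33-fold). Its T0 arrays lay far apart, with replicate 1 much the lower and replicate 2 within 1 of both 30 min arrays. Junb read 7.31 and 7.99 at T0 and 8.43 and 8.85 at 30 min (0.99 ± 0.32). Fosb read 5.20 and 5.05 at T0 and 5.34 and 7.36 at 30 min, high on replicate 2 alone. Jun, the partner of Fos, read 9.69 and 9.94 at T0 and 9.70 and 9.75 at 30 min, with full overlap (-0.09 ± 0.29, and 0.07 after cyclic loess). Fosl1 read 6.19 and 7.58 at T0 and 6.14 and 5.83 at 30 min. The median of the list was 0.87 when probe sets with a mean under 5 were left out. It was 0.13 without T0 replicate 1, 0.51 without T0 replicate 2, 0.17 without 30 min replicate 1 and 0.30 without 30 min replicate 2.

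The list named here for feedback genes also holds genes that need not end such signals, among them the Gadd45 stress genes. Of its 21 measured members 10 were higher and 11 lower, with a median of -0.02. Both 30 min arrays lay above T0 for 5 and below T0 for 1. The median was -0.20 without T0 replicate 1 and 0.52 without T0 replicate 2, 0.16 in 30 min replicate 1 alone and -0.07 in replicate 2 alone. The 5 were Zfp36, Dusp1, Dusp4, Gadd45b and Gadd45g. Dusp1, which dephosphorylates MAP kinases, read 5.32 and 6.82 at T0 and 8.11 and 8.92 at 30 min (2.44 ± 0.82, 5.44-fold). Both 30 min arrays of Dusp1 exceeded both T0 arrays by more than 1. Gadd45g, a growth arrest and stress sensor, read 5.29 and 6.46 at T0 and 6.88 and 7.24 at 30 min (1.19 ± 0.55). Its relative Gadd45b read 5.62 and 6.6 at T0 and 7.16 and 6.70 at 30 min (0.82 ± 0.41). The second probe sets of Dusp1 and Fos differed by -0.06 and 0.24.

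Activity-regulated genes of the Egr and Nr4a kind numbered 35 measured, 25 higher and 10 lower, with a median of 0.24; 4 had both 30 min arrays above T0 and 6 had both below. Nr4a1, an orphan nuclear receptor, read 6.88 and 6.68 at T0 and 7.47 and 8.67 at 30 min (1.29 ± 0.60). Egr1 read 6.85 and 10.02 at T0 and 8.41 and 10.12 at 30 min, so that the gap within T0 (3.16) exceeded the difference between the means (0.83 ± 1.48). Arc, an effector of synaptic plasticity, read 6.22 and 6.10 at T0 and 6.09 and 7.34 at 30 min. Only replicate 2 of the 30 min pair was high for Arc, and the same held for Nr4a3, at 5.69 and 4.34 against 5.44 and 7.89. Ccn2, a matricellular protein, was the 1 member with an unadjusted p under 0.05; it read 5.46 and 9.09 at T0 and 4.17 and 4.89 at 30 min (-2.74 ± 1.00). In the list of neurotrophic factors (14 measured, 5 higher, 9 lower, median -0.12), Bdnf read 4.83 and 4.29 at T0 and 3.87 and 8.52 at 30 min. That spread of 4.65 within 30 min lies along the excitatory neuron markers of the same arrays, which were low on replicate 1 and high on replicate 2; their part in the result was not tested. Tgfa, a ligand of the EGF receptor, read 4.95 and 4.91 at T0 and 5.60 and 5.18 at 30 min (0.46 ± 0.18).

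Prostaglandin, chemokine and cytokine genes (26 measured) were 8 higher and 18 lower, with a median of -0.10; 0 had both 30 min arrays above T0 and 1 had both below. Ptgs2, the inducible cyclooxygenase, read 3.59 and 3.41 at T0 and 3.26 and 4.91 at 30 min. The adhesion molecule Icam1 read 6.05 and 8.53 at T0 and 6.47 and 5.80 at 30 min. The chemokine gene Ccl20 read 4.59 and 7.31 at T0 and 4.68 and 4.49 at 30 min. For Icam1 and Ccl20 the T0 replicate 2 array alone was high.

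Genes of cell division, in lists chosen with earlier results of these data known, lay on the lower side. Of 28 measured mitosis genes, 0 were higher and 28 lower, with a median difference of -0.56 and 15 with both 30 min arrays below T0 (13.5% of all genes); 8 had an unadjusted p under 0.05 on the lower side (2.16% of all genes), and 0 passed the adjusted threshold. Taken singly against the T0 mean, 30 min replicate 1 had a median of -0.24 and replicate 2 of -1.0. Racgap1, a regulator of cytokinesis, read 7.12 and 6.69 at T0 and 5.6 and 5.4 at 30 min (-1.41 ± 0.41). Top2a, the topoisomerase of dividing cells, read 8.34 and 7.92 at T0 and 7.55 and 6.91 at 30 min (-0.89 ± 0.31). The kinesin Kif15 read 6.59 and 7.07 at T0 and 6.23 and 5.16 at 30 min (-1.14 ± 0.37). For Kif15, as for the kinase gene Melk (6.65 and 6.92 against 6.59 and 5.54), 30 min replicate 2 was much the lower. Cdkn3 read 7.53 and 7.21 at T0 and 6.88 and 5.15 at 30 min.

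DNA replication genes followed with 3 of 28 higher and 25 lower, and a median of -0.58. Both 30 min arrays lay below T0 for 15 (13.5% of all genes). On the lower side, 8 had an unadjusted p under 0.05 (2.16% of all genes). The median was -0.28 in 30 min replicate 1 alone, -0.80 in replicate 2 alone and -0.38 with the bacterial control signal as a covariate. Rrm1, the large subunit of ribonucleotide reductase, read 8.25 and 8.62 at T0 and 7.32 and 6.88 at 30 min (-1.33 ± 0.44). Lig1, the ligase that joins Okazaki fragments, read 8.53 and 8.33 at T0 and 7.63 and 7.42 at 30 min (-0.91 ± 0.25). Chaf1a, a chromatin assembly factor, read 6.88 and 6.57 at T0 and 5.90 and 5.72 at 30 min (-0.91 ± 0.38). Unlike Kif15 and Melk, these 3 were low to a like degree on both 30 min arrays. Other replication genes were low on 30 min replicate 2 alone, so this does not set the 2 lists apart. Mcm7 read 8.62 and 8.68 at T0 and 9.03 and 7.09 at 30 min, and Rfc4 read 7.94 and 8.11 against 8.12 and 6.50. Pola1, the catalytic subunit of polymerase alpha, differed by -0.63 ± 0.26.

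Cytosolic ribosomal protein genes, 36 measured of 71 listed, were 1 higher and 35 lower, with a median of -0.62. Both 30 min arrays lay below T0 for 24 (13.5% of all genes). On the lower side, 6 had an unadjusted p under 0.05 (2.16% of all genes). The median was -0.32 in 30 min replicate 1 alone, -0.97 in replicate 2 alone and -0.37 with the bacterial control signal as a covariate. Rps6 read 12.17 and 12.66 at T0 and 11.74 and 11.85 at 30 min (-0.62 ± 0.26). Rps15a read 10.27 and 10.62 at T0 and 9.87 and 9.15 at 30 min (-0.94 ± 0.28). Rpsa read 11.94 and 12.55 at T0 and 11.66 and 11.15 at 30 min (-0.84 ± 0.34). Ribosomal protein genes have many near-identical pseudogene copies, so their probe sets may read more than 1 locus. The lower ribosomal, mitotic and microglial values and the low control signal lay on the same array, 30 min replicate 2, and the part of that array in these results was not tested beyond the values without it.

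**Figure D2:**
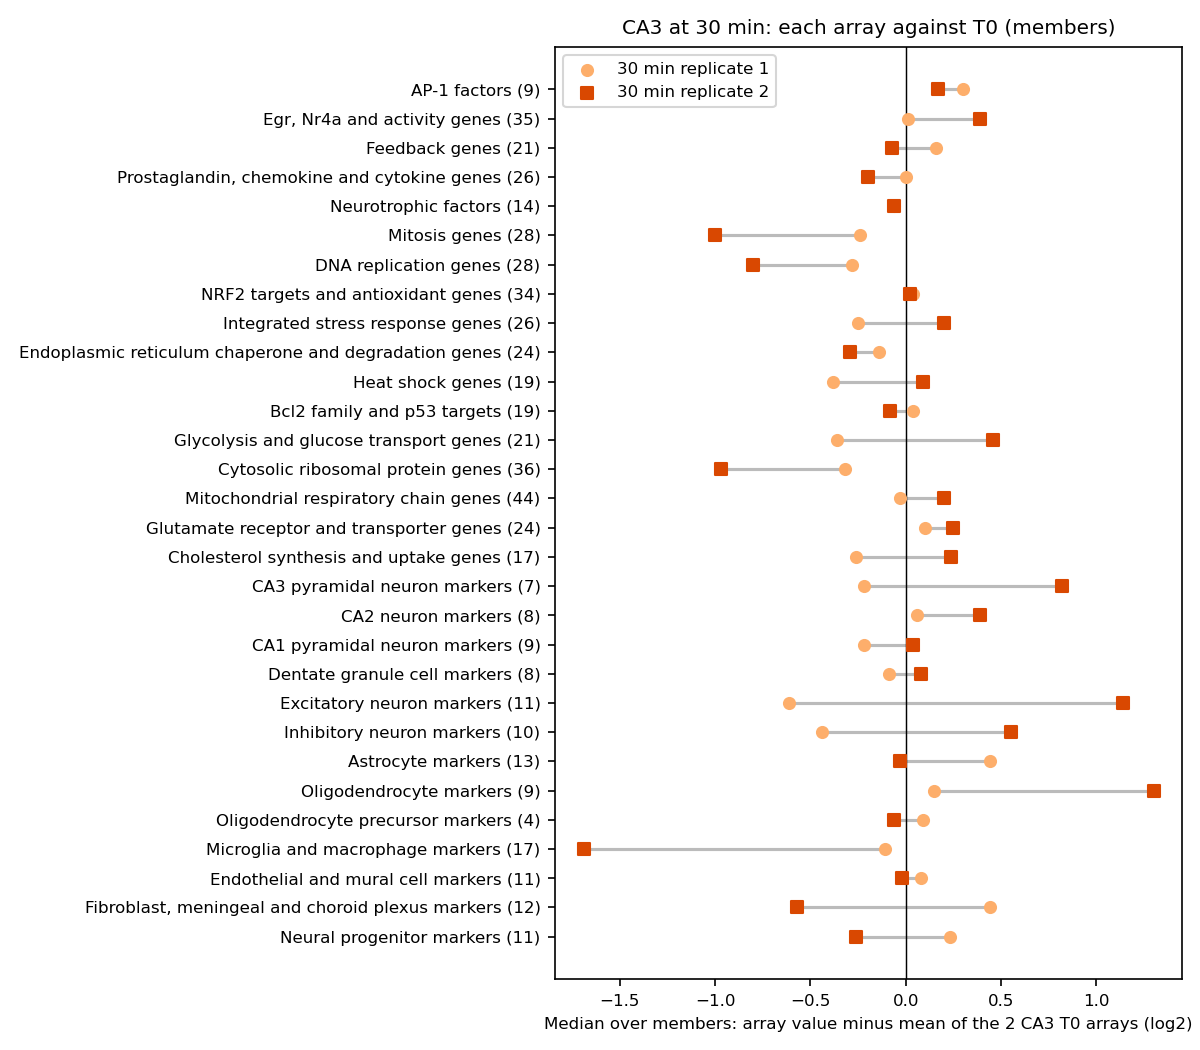
Median over the measured members of each of 30 gene lists (y axis, with the number of members) of the log2 difference between 1 CA3 array at 30 min and the mean of the 2 CA3 T0 arrays (x axis); circles are replicate 1 and squares replicate 2. Mitosis (-0.24 and -1.0), replication (-0.28 and -0.80) and ribosomal genes (-0.32 and -0.97) lie left of 0 on both arrays, while excitatory neuron markers lie on opposite sides (-0.61 and 1.14).

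Antioxidant genes lay near the background of all genes. NRF2 targets and other antioxidant genes (34 measured) were 17 higher and 17 lower, with a median of -0.03 and 4 each with the groups apart upward and downward. Hmox1, the haem oxygenase that is among the best known NRF2 targets, read 9.85 and 10.19 at T0 and 10.40 and 9.05 at 30 min, with overlap (-0.29 ± 0.48). Aox1, aldehyde oxidase, was the 1 member with an unadjusted p under 0.05 and read 5.43 and 5.14 at T0 and 6.15 and 6.01 at 30 min (0.80 ± 0.27). The autophagy receptor gene Sqstm1 read 9.49 and 8.97 at T0 and 9.40 and 10.46 at 30 min, again high on replicate 2 only.

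Integrated stress response genes (26 measured) were 13 higher and 13 lower, median -0.03, with 5 apart upward and 2 downward. The median was -0.25 in 30 min replicate 1 alone and 0.20 in replicate 2 alone. At an unadjusted p under 0.05, 2 members were higher and 1 lower. The lower one was Cars1, described above (-0.95 ± 0.22), which had the smallest p of the list. Nupr1 was the other member apart downward, at 4.95 and 5.87 against 4.81 and 4.89. The amino acid transporter subunits Slc7a5 and Slc3a2, which form 1 carrier, were both higher: Slc7a5 read 6.0 and 6.15 at T0 and 6.76 and 6.39 at 30 min (0.50 ± 0.21). Slc3a2 read 8.62 and 8.35 at T0 and 9.01 and 9.87 at 30 min (0.96 ± 0.42). Chac1, which breaks down glutathione, read 7.25 and 7.37 at T0 and 7.55 and 8.02 at 30 min (0.48 ± 0.28). The groups of these 3 genes did not overlap, unlike those of Atf4 and of Ddit3, the transcription factor also called CHOP. Atf4 read 9.32 and 9.49 against 9.22 and 10.15, and Ddit3 read 6.84 and 7.26 against 6.97 and 7.56.

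Chaperone and degradation genes of the endoplasmic reticulum (24 measured) were 5 higher and 19 lower, median -0.28. Of these, 2 were apart upward and 6 downward (12.7% and 13.5% of all genes). On the lower side, 2 had an unadjusted p under 0.05 (2.16% of all genes). The co-chaperone gene Dnajb11 read 8.68 and 8.80 at T0 and 8.08 and 8.02 at 30 min (-0.69 ± 0.19). Dnajc3, another co-chaperone that also restrains the kinase PERK, read 7.16 and 7.74 at T0 and 6.81 and 6.09 at 30 min (-0.99 ± 0.37). The chaperone Hspa5 itself overlapped, at 9.49 and 10.19 against 9.62 and 9.42. Heat shock genes (19 measured) were 7 higher and 12 lower, median -0.07, with 0 apart upward and 2 downward. The inducible Hspa1a read 5.22 and 5.32 at T0 and 5.24 and 6.30 at 30 min, and the mitochondrial chaperonin Hspd1 read 10.78 and 10.96 against 10.34 and 10.27. Bcl2 family genes and p53 targets (19 measured) were 10 higher and 9 lower, median 0.01, with 1 apart upward and 0 downward. None of these 3 lists had a member past the adjusted threshold.

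Metabolic and synaptic lists gave small medians. Glycolysis and glucose transport genes (21 measured) were 10 higher and 11 lower, median -0.11, with medians of -0.36 on 30 min replicate 1 and 0.46 on replicate 2. Slc2a1, the glucose transporter of glia and vessels, read 7.09 and 7.51 at T0 and 7.90 and 7.89 at 30 min (0.59 ± 0.42), and Aldoc, the aldolase of astrocytes, read 9.28 and 8.23 against 10.01 and 9.40. Respiratory chain genes (44 measured) were 30 higher and 14 lower, median 0.11, with 1 apart upward (Ndufb8) and 2 downward. Glutamate receptor and transporter genes (24 measured) were 18 higher and 6 lower, median 0.23, with 7 apart upward and 2 downward (12.7% and 13.5% of all genes). No glutamate list member had an unadjusted p under 0.05. Cholesterol synthesis and uptake genes (17 measured) were 11 higher and 6 lower, median 0.06. In that list Hsd17b7, an enzyme of the pathway, read 4.39 and 4.28 at T0 and 5.20 and 4.84 at 30 min (0.69 ± 0.20), and was the 1 member with an unadjusted p under 0.05.

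Among the cell type lists, oligodendrocyte markers were all on the higher side: 9 of 9 measured, with a median of 0.85. Of these, 5 were apart upward and 3 had an unadjusted p under 0.05 (12.7% and 1.27% of all genes). Mog, a protein of the outer myelin surface, read 4.60 and 4.47 at T0 and 5.17 and 5.60 at 30 min (0.85 ± 0.20). Mag, a myelin adhesion protein, read 7.09 and 6.89 at T0 and 7.69 and 9.01 at 30 min (1.36 ± 0.47). Mobp read 4.45 and 4.42 at T0 and 4.58 and 7.08 at 30 min. The size was uneven between the arrays, with a median of 0.15 on 30 min replicate 1 and 1.30 on replicate 2. Enpp6 read 6.14 and 6.63 at T0 and 7.32 and 7.70 at 30 min, and Mbp, myelin basic protein, read 11.34 and 9.87 against 11.71 and 12.34. Cnp, another myelin gene, read 11.47 and 12.02 against 11.81 and 11.94, with overlap. Markers of oligodendrocyte precursors (4 measured) had a median of -0.12.

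Microglia and macrophage markers leaned the other way: 1 of 17 higher and 16 lower, median -0.82. Of these, 0 were apart upward and 7 downward (12.7% and 13.5% of all genes). On the lower side, 1 had an unadjusted p under 0.05 (2.16% of all genes). Lyz2, lysozyme, read 12.63 and 12.76 at T0 and 12.32 and 11.02 at 30 min (-1.02 ± 0.44). C1qc, a complement subunit, read 10.22 and 10.72 at T0 and 9.81 and 8.78 at 30 min, and Ptprc, the leukocyte antigen CD45, read 6.27 and 6.14 against 5.96 and 4.12. Without 30 min replicate 2 the median was -0.11, without 30 min replicate 1 it was -1.69, and with the bacterial control signal as a covariate it was -0.33. Cx3cr1, the fractalkine receptor, read 5.33 and 4.86 against 4.99 and 5.02.

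Excitatory neuron markers were 7 of 11 higher, median 0.12, with 0 apart in either direction. Snap25, a synaptic vesicle fusion protein, read 10.57 and 7.04 at T0 and 7.45 and 9.94 at 30 min, and the vesicular glutamate transporter Slc17a7 read 8.54 and 6.04 against 5.83 and 8.99. The list's median took either sign as arrays were left out: 0.91 without T0 replicate 1, -0.78 without T0 replicate 2, 1.14 without 30 min replicate 1 and -0.61 without 30 min replicate 2, and -0.20 with the bacterial control signal as a covariate. Inhibitory neuron markers (10 measured) were 6 higher and 4 lower, median 0.30, with medians of -0.44 on 30 min replicate 1 and 0.55 on replicate 2. The 2 apart upward were Calb2 and Gad2, a GABA-synthesising enzyme (4.58 and 4.59 against 5.10 and 5.12). The largest differences of that list were downward with overlap: Reln, the secreted protein reelin, read 8.46 and 10.53 against 7.24 and 8.80 (-1.48 ± 0.77), the neuropeptide gene Npy read 10.71 and 11.57 against 9.17 and 10.85 (-1.13 ± 0.91), and Gad1 read 7.62 and 9.09 against 5.56 and 8.93 (-1.11 ± 1.01). Medians were 0.50 for CA3 pyramidal markers, 0.23 for CA2 markers (8 measured), 0.02 for CA1 pyramidal markers (9) and 0.06 for dentate granule cell markers (8). Astrocyte markers (13) had a median of 0.33 with 4 apart upward and 1 downward, and Gfap, their filament protein, read 12.93 and 12.04 against 12.92 and 12.47. The remaining medians were 0.04 for endothelial and mural markers (11), 0.08 for fibroblast, meningeal and choroid plexus markers (12) and -0.09 for neural progenitor markers (11).

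**Figure D3:**
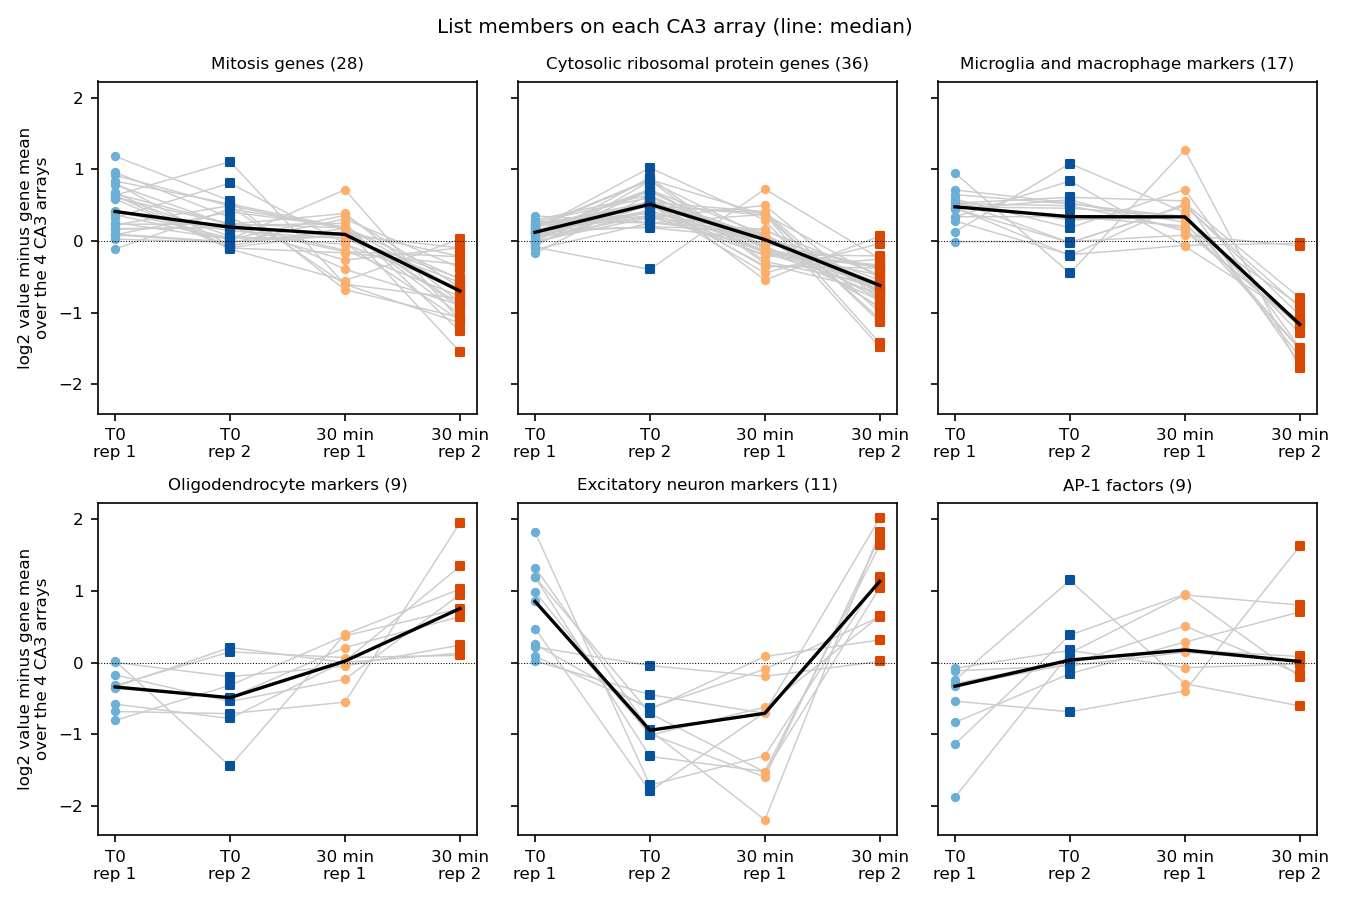
Log2 value of each list member minus its own mean over the 4 CA3 arrays (y axis), for 6 lists; each grey line is 1 gene, the black line the median, and the x axis names the array (the replicates have no order). Mitosis and ribosomal genes are lowest on 30 min replicate 2, microglia markers are low on that array alone (list mean 7.05 against 8.48 to 8.65), and excitatory neuron markers are high on T0 replicate 1 and 30 min replicate 2.

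The same times were sampled in CA1. In CA1, 2 probe sets passed (0.0126%; 787 with an unadjusted p under 0.05, 4.96%; limma): Zfp36, which rose by 2.03 (adjusted p = 0.0284), and Pimreg, with -2.73 (adjusted p = 0.0284). Of the 15 genes higher in CA3, 12 had the same sign in CA1 and 8 had both CA1 arrays at 30 min above both at T0. Over all genes those shares in CA1 were 44.1% and 16.1%, and over the 1325 genes apart upward in CA3 they were 60.1% and 27.5%. Of the 15 lower, 15 had the same sign and 14 had the groups apart in the same direction; Cars1 was the exception, at -0.29 in CA1. Downward, the shares in CA1 were 55.9% and 21.9% over all genes, and 81.1% and 46.1% over the 1402 genes apart downward in CA3. Cd9 differed by 1.84 in CA1, Mki67 by -2.44, Nes by -1.53 and Cd93 by -3.75. Same-numbered arrays of the 2 fields deviated together, so these are not independent repeats.

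Whether the difference itself differed between the fields was tested as an interaction. No probe set passed (0 of 15866, 0.0%; 133 with an unadjusted p under 0.05, 0.838%), nor did any in a fit of CA3 minus CA1 within same-numbered pairs (0; 595 unadjusted, 3.75%; smallest adjusted p 0.84, limma). Without CA3 T0 replicate 1, 1 probe set with no gene name passed the interaction. In the main fit, which did not pair the arrays, the interaction (the CA3 difference minus the CA1 difference) was -0.84 ± 0.33 for Zfp36 and 0.99 ± 0.43 for Pimreg. Strn and Rmnd5b were higher in CA3 and not in CA1 (-0.21 and -0.11), with interactions of 0.90 ± 0.29 and 0.94 ± 0.27. These 4 genes were chosen by their CA3 difference, which is a part of the interaction. The size of their interactions is therefore no separate support for a difference between the fields. In the pair fit the standard errors were 0.27 for Zfp36, 0.30 for Pimreg, 0.25 for Strn and 0.26 for Rmnd5b. The adjusted p was 1 for each of these 4 in both fits. List medians in CA1 were 0.79 for AP-1 genes, 0.34 for the feedback genes, -1.46 for mitosis genes, -0.84 for DNA replication genes and -0.57 for ribosomal protein genes. Oligodendrocyte markers had a median of 0.10 in CA1, with 5 of 9 above 0, and Mag read -0.29 there against 1.36 in CA3 (interaction 1.65 ± 0.66, adjusted p 1 and, in the pair fit, 0.84; limma).

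**Figure D4:**
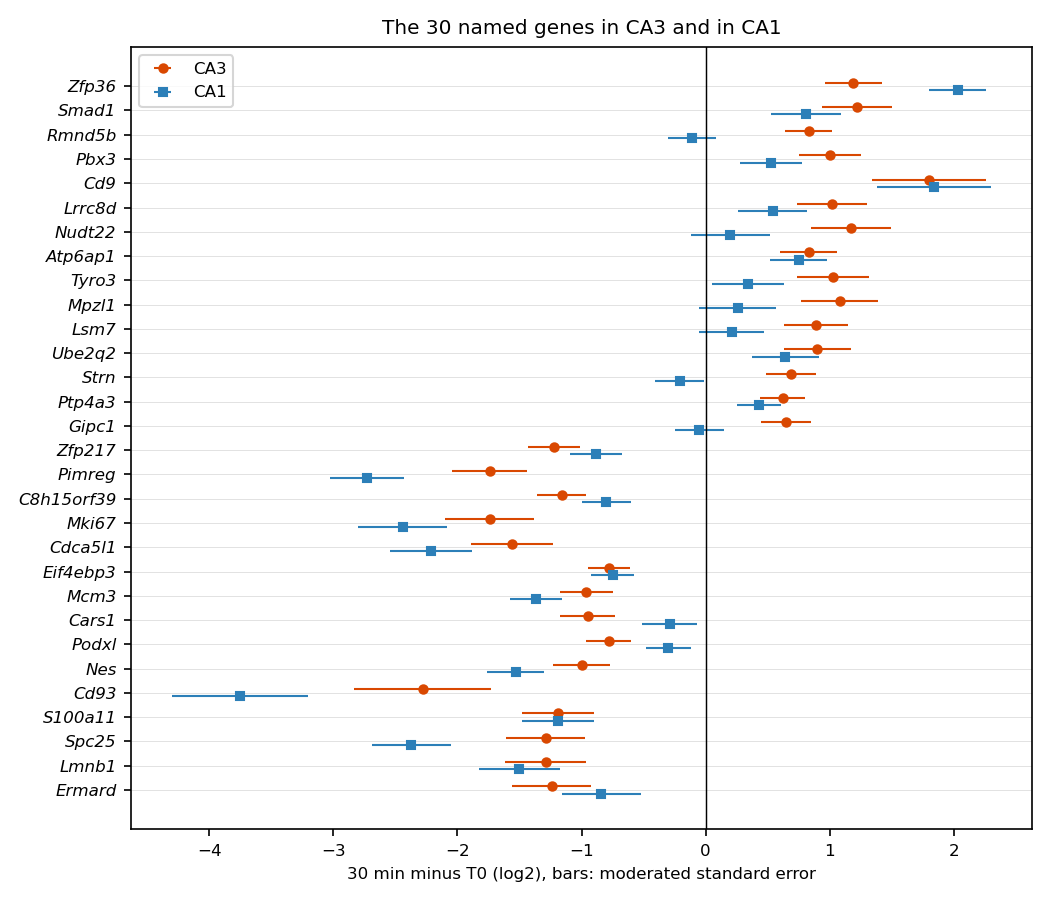
Log2 difference between 30 min and T0 (x axis) for the 30 genes chosen in CA3 (y axis), in CA3 (circles) and CA1 (squares), with moderated standard errors from 2 arrays per group as bars. All 15 lower genes lie left of 0 in CA1 too, Zfp36 reaches 2.03 in CA1 against 1.19 in CA3, and Strn, Rmnd5b and Gipc1 lie just below 0 in CA1.

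At 3 h in CA3, compared with the same 2 T0 arrays and so not independent of the 30 min values, 0 probe sets passed (0.0%; 623 with an unadjusted p under 0.05, 3.93%; limma). Side by side, 30 min and 3 h gave 1.74 and 1.65 for Fos, 0.99 and 0.86 for Junb, and 2.44 and 2.28 for Dusp1. Zfp36 gave 1.19 and 0.83. Gadd45g stood at 1.19 and 2.89, Gadd45b at 0.82 and 2.34, and Chac1 at 0.48 and 1.72, so these 3 read higher at 3 h. Hmox1 gave -0.29 at 30 min and 1.63 at 3 h, and Ddit3 gave 0.21 and 1.81. Mki67 gave -1.74 and -2.05, and Nes gave -1.0 and -1.11. Cars1 stood at -0.95 and -0.01 and Podxl at -0.78 and -0.11, so both read near T0 at 3 h. The medians at 3 h were 0.86 for AP-1 genes, -1.16 for mitosis genes, -0.67 for DNA replication genes, -0.40 for ribosomal protein genes, 0.30 for oligodendrocyte markers and -0.82 for microglia and macrophage markers.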

How the data were processed

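Expression was measured on Affymetrix rat arrays. The deposited values are log2 expression values, which the authors made with RMA (per the submitters' processing notes; the sources used here give no version or settings). RMA as usually run gives all arrays 1 distribution, so that a change in total mRNA cannot be seen. The number of arrays limits the precision. The 57 control probe sets were set aside and 15866 tested with limma 3.58.1 (R 4.3.3): 8 group means over all 16 arrays, 8 residual degrees of freedom, empirical Bayes prior of 2.55, Benjamini-Hochberg adjustment over all probe sets, threshold 0.05. A fit of this kind was tested on simulated data. The platform annotation gave 1 gene for 12783 probe sets, several for 312 and none for 2771 (12748 matched RefSeq GRCr8 by Entrez identifier); the probe set with the highest mean stands for each of 10411 genes. Named were the 15 higher and 15 lower genes with the smallest unadjusted p whose groups do not overlap and whose higher mean is at least 6, plus up to 6 leading and the defining members of each list. Members and lists were chosen with earlier results of these data known. Promoters were found for 466 of 568 named or listed genes. The CArG box was searched as CC, then 6 bases that are each A or T, then GG. Both strands were read for every motif. Deviations from group means correlated between same-numbered CA1 and CA3 arrays, over probe sets, at 0.568 (T0), 0.668 (30 min), 0.58 (3 h) and 0.574 (12 h). Same-numbered arrays were therefore treated as pairs of the fields in the pair fit of the interaction. The main fit did not pair them and took the 16 arrays as independent. Between CA3 at T0 and 30 min the correlation was -0.236, so those were not paired. Alternatives were other sets of arrays, the replicate number as a block, cyclic loess, a filter on dim probe sets (mean under 5), a trend in the prior, the bacterial control signal as a covariate, all probe sets of a gene, and each array left out.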

Additional observations from a re-analysis of the deposited data

How the results depend on the processing

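The count of 0 probe sets past the adjusted threshold held in every alternative run that kept all 4 CA3 arrays, for the CA3 difference and for the interaction with CA1. Leaving out 1 array gave 0 to 5 for the CA3 difference and 0 to 1 for the interaction, the higher values without T0 replicate 1. Probe sets with an unadjusted p under 0.05 (194 higher, 289 lower) numbered 128 higher with the 4 CA3 arrays alone, 94 and 190 with the filter on dim probe sets, and 457 higher and 412 lower with the bacterial control signal as a covariate, so that more were higher than lower. With the replicate number as a block they were 319 and 490; same-numbered CA3 arrays at T0 and 30 min deviated in opposite directions, and with the numbers crossed (chosen after seeing the data) 495 were lower. With 1 array left out they ranged from 106 to 612 and from 191 to 519. Probe sets apart by at least 2-fold (67 higher, 129 lower) ranged from 120 to 584 and from 174 to 612 by construction, since 1 array overlaps less. The AP-1 median was 0.87 with the dim filter, 0.46 with the control covariate and 0.13 to 0.51 with 1 array left out. The other medians over the arrays left out ran from -0.20 to 0.52 (feedback), -1.0 to -0.24 (mitosis), -0.80 to -0.28 (DNA replication), -0.97 to -0.32 (ribosomal proteins), -0.78 to 1.14 (excitatory neurons), 0.15 to 1.30 (oligodendrocytes) and -1.69 to -0.11 (microglia). Single genes that turned sign went as follows: Jun to 0.07 (cyclic loess) and 0.01 (control covariate), and with that covariate Hmox1 to 0.15, Atf4 to -0.03, Hspa1a to -0.37 and Slc17a7 to -0.54. With 1 array left out, the sign was not kept by Jun (-0.21 to 0.04), Egr1 (-0.75 to 2.41), Arc (-0.07 to 1.18), Bdnf (-0.69 to 3.96), Ptgs2 (-0.24 to 1.41), Icam1 (-2.40 to 0.09), Hmox1 (-0.96 to 0.38), Atf4 (-0.19 to 0.74), Ddit3 (-0.08 to 0.50), Hspa5 (-0.67 to 0.03), Hspa1a (-0.03 to 1.03), Cnp (-0.15 to 0.41), Cx3cr1 (-0.33 to 0.15), Snap25 (-1.88 to 1.65), Slc17a7 (-1.46 to 1.70), Gfap (-0.24 to 0.65) Gad1 (-2.79 to 0.57) and Grik4 (0.0 to 1.02). The causes were not tested. A lone array of a group was assumed to vary like those of the other groups. With 2 arrays a group, differences under about the gap between arrays cannot be told from it.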

Other observations

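Examples follow of genes among the 8 with the widest gap each way between the 2 arrays of a group, chosen after their values were seen and with no test. On the 30 min arrays, and higher on replicate 2, Chgb, a secretory granule protein, read 5.45 and 10.19, the pentraxin gene Nptx1 read 6.44 and 10.66, the synapsin gene Syn2 read 4.58 and 8.75, and Rbfox3, which encodes the neuronal nuclear antigen NeuN, read 4.20 and 8.21. Higher on replicate 1 were others: the chemokine gene Ccl2 read 8.83 and 5.07, Ly86 read 8.91 and 5.70, and Spp1, osteopontin, read 10.28 and 6.98. Arl11 read 9.99 and 5.65, and Lcat, a cholesterol acyltransferase, read 9.87 and 6.28. Postn, periostin, of fibroblasts, read 8.90 and 5.54.

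At T0 Snap25 (10.57 and 7.04), Hpca, a neuronal calcium sensor (9.17 and 5.63), Chn1 (9.39 and 5.44) and Nptx1 (10.22 and 7.13) were higher on replicate 1. On T0 replicate 2 the higher genes were Akr1b8, an aldo-keto reductase (4.50 and 9.13), Ccn2 (5.46 and 9.09), the chemokine gene Cxcl1 (5.42 and 8.92), Krt18, a keratin (4.22 and 7.28), Mgp, matrix Gla protein (8.70 and 12.02), and Egr1 (6.85 and 10.02). Several of these were also higher on T0 replicate 2 in CA1, where Akr1b8 read 6.67 and 9.10 and Krt18 read 4.47 and 7.20.

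Without T0 replicate 1, 5 probe sets passed the adjusted threshold, all lower at 30 min, and 3 have a gene name. Ptgds, a prostaglandin D synthase, then differed by -2.77. Ptges, a prostaglandin E synthase, differed by -2.37, and Slfn4, of the schlafen family, by -3.86. In that fit T0 rested on 1 array, so the spread at T0 was not measured. The Ptges value is of a probe set other than the 1 that stands for the gene. The latter read 5.22 and 5.06 at T0 and 5.15 and 4.95 at 30 min (-0.09 ± 0.25). For each of the 3 probe sets that passed with a gene name, T0 replicate 2 alone was high. Ptgds read 4.10 and 6.94 at T0 and 4.05 and 4.29 at 30 min. Ptges read 4.30 and 6.66 against 4.42 and 4.14, and Slfn4 read 4.97 and 8.10 against 4.35 and 4.14. With all arrays their differences were -1.35, -1.20 and -2.29, with an adjusted p of 1 (limma).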
